A study of Mus musculus with 54 samples.

Results

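This section describes where the transcription factor TFE3 bound chromatin in livers of mice fed the FPC diet, with and without folliculin in hepatocytes. The members were the peaks of 2 deposited lists, taken whole: 9647 peaks for Control liver and 27751 for LiFKO liver, together 37398 of the 121380 peaks in the 6 TFE3 lists of the series. A peak was called shared when it overlapped a peak of the other list by at least 1 bp, and list-specific otherwise. Control and LiFKO mice carried floxed Flcn alleles in every cell and differed in the virus given, an AAV8 with a TBG (hepatocyte) promoter that drives GFP in Control mice and Cre in LiFKO mice, at 2.5e11 genome copies each. Feeding with FPC lasted 9 days, beginning about a week after the virus, and the livers were taken from fed animals. Each genotype had 3 TFE3 chromatin immunoprecipitation (ChIP) libraries and 1 input library. A single TFE3 ChIP library from a Tfe3KO mouse on FPC (whole-body Tfe3 deletion, with a label that gives Cre at the same dose) was a background for both lists. The other 4 TFE3 lists came from floxed Flcn mice on FPC that received GFP or Cre virus at 1.5e11 and an nSREBP-1c virus at 1.0e11 genome copies (Control+1c and LiFKO+1c, 3 ChIP libraries each), and from fed mice on chow with GFP or Cre virus at 1.5e11 genome copies (4 ChIP libraries each). RNA levels came from other mice on other diets: floxed Flcn mice with GFP (Control) or Cre (LiFKO) on chow or the AMLN diet, and DKO mice on AMLN, which carried the Tfe3 deletion as well and received Cre, with 3 libraries in each of these 5 groups. Those viruses were given at 1.5e11 genome copies, the diets lasted 17 to 18.5 weeks and the mice were fasted for 4 to 6 h. The series has no FPC RNA among the files used, so every RNA value below is set beside FPC binding from different animals, diet and feeding state.

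TFE3 belongs, with TFEB, MITF and TFEC, to the MiT-TFE family of basic helix-loop-helix leucine zipper factors. Folliculin, the product of Flcn, stimulates GTP hydrolysis by RagC and RagD at the lysosome, which lets mTORC1 phosphorylate TFE3 and hold it in the cytosol, and loss of folliculin lets TFE3 enter the nucleus. The family binds E-boxes with the core CACGTG, among them the CLEAR elements found in promoters of lysosomal and autophagy genes.

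How the lists were made bears on their lengths. Per the file headers, each list kept peaks found over 2 backgrounds, and in both lists the pool of 3 libraries included 1 named input. In each, 1 of the backgrounds was a library named TFE3 with the same number in its name as that input, a number that no sample label explains. For LiFKO, the deposited table of LiFKO+1c over LiFKO gives log tag counts of the same 3 libraries at 96 peaks. The medians were 3.62 for the library named input and 3.55 and 3.61 for those named TFE3. The LiFKO+1c ChIP libraries had medians of 4.49 to 4.56 there, so these are sites where the LiFKO signal was the lower. Values of the 3 LiFKO libraries correlated at 0.958 to 0.964 across those peaks, as a description over peaks of another comparison. No such values were at hand for the Control pool. Whether the library named input holds input chromatin was not tested for either pool. Scores stepped in whole multiples of 0.183 in the Control list and 0.215 in the LiFKO list, all values under 10 included within 0.006. Read as tags scaled to HOMER's usual total, those steps correspond to pools of 54.7 and 46.6 Mtags (1 Mtag is 1e6 tags), and the totals of the 3 LiFKO libraries in the other table's header sum to 46.6 Mtags. On that reading the shorter list came from the deeper pool. The part of depth, or of the libraries named input, in the list lengths was not tested. All Control peaks were 174 bp wide and all LiFKO peaks 166 bp, covering 1688.2 and 4634.4 kb and 1.101% and 4.233% of the pooled tags. In bulk liver, bound sites in more cells and stronger binding per cell cannot be told apart, nor, for RNA, fewer cells of a type and less RNA per cell.

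In FPC liver without hepatocyte folliculin, the TFE3 list kept most of the Control sites and held many more. Of the Control peaks, 7437 (77.1%, 95% Wilson interval 76.2 to 77.9%) were also in the LiFKO list, where they made up 26.8%. The LiFKO list added 20314 peaks, and 2210 were in the Control list alone. Promoters under shared peaks held the E-box CACGTG more often than promoters under LiFKO-only peaks (24.5% against 12.2%), and genes near shared peaks more often had higher RNA in LiFKO liver (18.1% against 12.4% on chow). These lists are pooled, so the counts of peaks and genes are descriptions without a test, and the interval covers counting error only.

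Promoters of the gene lists with the highest-scoring LiFKO peak in the window from 250 bases before to 50 bases after the start show what these sites look like. Among genes with 1 RefSeq promoter and a RefSeq length within 100 bp of the deposited one, the 5 highest shared and the 4 highest LiFKO-only ones are printed from 150 bases before to 30 after the start, in the gene's direction, from RefSeq (GRCm38.p6), with each CACGTG in capitals. The peaks themselves are in mm9 coordinates, and no sequence was read at them.
Rragc, shared: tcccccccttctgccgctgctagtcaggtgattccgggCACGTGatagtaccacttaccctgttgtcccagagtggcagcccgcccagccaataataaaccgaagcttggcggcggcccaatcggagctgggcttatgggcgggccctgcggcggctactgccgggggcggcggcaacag
Naglu, shared: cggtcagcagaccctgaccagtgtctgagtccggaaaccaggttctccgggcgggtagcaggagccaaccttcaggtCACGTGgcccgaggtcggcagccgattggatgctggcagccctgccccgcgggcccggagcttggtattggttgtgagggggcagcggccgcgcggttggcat
Atp6v1e1, shared: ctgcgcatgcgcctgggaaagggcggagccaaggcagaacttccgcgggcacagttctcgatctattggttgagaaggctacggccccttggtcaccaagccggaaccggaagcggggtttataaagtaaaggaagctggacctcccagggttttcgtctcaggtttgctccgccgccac
Atp6v0d1, shared: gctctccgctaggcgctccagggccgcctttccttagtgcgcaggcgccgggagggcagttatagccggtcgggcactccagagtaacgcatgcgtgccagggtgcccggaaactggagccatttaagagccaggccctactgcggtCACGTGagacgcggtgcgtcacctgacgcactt
Mcoln1, shared: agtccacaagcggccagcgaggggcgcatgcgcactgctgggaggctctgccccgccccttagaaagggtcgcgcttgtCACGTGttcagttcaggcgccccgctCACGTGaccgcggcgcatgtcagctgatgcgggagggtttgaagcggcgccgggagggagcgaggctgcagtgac
Srebf2, LiFKO-only: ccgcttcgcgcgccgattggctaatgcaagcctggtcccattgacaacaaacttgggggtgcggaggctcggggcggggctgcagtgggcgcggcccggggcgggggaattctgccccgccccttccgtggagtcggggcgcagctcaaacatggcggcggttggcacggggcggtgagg
Atp6v0b, LiFKO-only: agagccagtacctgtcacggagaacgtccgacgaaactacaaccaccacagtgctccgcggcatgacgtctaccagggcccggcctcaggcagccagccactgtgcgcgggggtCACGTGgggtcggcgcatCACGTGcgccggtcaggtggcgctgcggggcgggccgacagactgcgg
Ulk1, LiFKO-only: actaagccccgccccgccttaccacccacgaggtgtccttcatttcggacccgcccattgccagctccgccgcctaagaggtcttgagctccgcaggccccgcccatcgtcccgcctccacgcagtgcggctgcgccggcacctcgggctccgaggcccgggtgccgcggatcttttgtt
Atp6v0e, LiFKO-only: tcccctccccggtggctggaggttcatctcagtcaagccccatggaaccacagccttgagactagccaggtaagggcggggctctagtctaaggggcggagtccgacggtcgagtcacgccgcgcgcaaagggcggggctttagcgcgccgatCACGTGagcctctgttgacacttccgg

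The printed Rragc stretch is chr4:123917283-123917462 (plus strand), and its E-box begins 112 bases before the start. The FPC peak there (mm9 chr4:123594509-123594675) was centred 97 bp before the start, so the E-box lay close to the peak's middle. Naglu, which encodes the lysosomal enzyme that removes N-acetylglucosamine from heparan sulfate, has its E-box 73 bases before the start (chr11:101069944-101070123, plus) and a peak centred 63 bp before it. Atp6v0d1, a subunit of the membrane sector of the proton pump that acidifies lysosomes (V-ATPase), has an E-box that spans the start itself, beginning 3 bases before it (chr8:105566035-105566214, minus). Mcoln1, the lysosomal calcium channel, carries 2 E-boxes, beginning 71 and 45 bases before the start (chr8:3500369-3500548, plus). Atp6v1e1 (chr6:120822669-120822848, minus), a subunit of the pump's cytosolic sector, shows no CACGTG in the window although its peak scored 81.3.

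Among the 4 LiFKO-only promoters, Atp6v0b (chr4:117887300-117887479, minus) carries 2 E-boxes, at 36 and 18 bases before the start, and Atp6v0e (chr17:26676246-26676425, plus) carries 1, which begins 3 bases after it. Both genes encode membrane subunits of the same pump. No CACGTG lay in the promoter of Srebf2 (chr15:82147119-82147298, plus), the regulator of cholesterol synthesis, or of Ulk1 (chr5:110810052-110810231, minus), the kinase that starts autophagy. A missing match says only that these letters are not in the window. The 10 metabolic and lysosomal lists were also taken whole outside chromosome 18, for genes with a peak in the window and a RefSeq gene length within 100 bp of the deposited one. There, 14 of 23 promoters whose highest-scoring peak was shared and 4 of 20 whose highest was LiFKO-only held CACGTG.

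The same order held over all promoters. Of 7638 measured genes with 1 RefSeq promoter, 901 had a shared peak centred in the promoter window, and 221 of those promoters (24.5%) held CACGTG. LiFKO-only peaks without a shared one marked 1592 promoters, 12.2% of them with CACGTG. Control-only peaks alone marked 64 with 6.2%, and the 5081 promoters without an FPC peak stood at 7.3%. Across all 32851 RefSeq promoters of the table the share was 7.2%. The longer motifs, which contain CACGTG, followed the same order: GTCACGTG was in 12% of promoters with a shared peak, 5.2% with a LiFKO-only peak and 2.7% without a peak, and TCACGTGA in 5.8%, 2.5% and 1.3%. TCACNNGA, a looser pattern that also matches TCACGTGA, differed less, at 17.6%, 13.6% and 10.8%. In the whole RefSeq table, GTCACGTG was in 2.2% of promoters, TCACGTGA in 1% and TCACNNGA in 12.1%. Both strands were searched, and the mean GC content was 62.8%, 62.4% and 59.8% in the 3 classes.

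The E-box share went with peak rank as well as with sharing. Promoters whose highest LiFKO peak lay under the 25th percentile of the list by score held CACGTG in 2.8% of 107 cases, and those in the top 10% in 24.3% of 824. Inside the top 10%, CACGTG was found in 30.1% of 402 promoters with a shared peak and 18.7% of 422 with LiFKO-only peaks and no shared one. The rank was that of the highest LiFKO peak in the window, which need not be the shared one. Between the 75th and 90th percentiles the shares were 27.5% of 236 and 11.4% of 455. Where a promoter held both a peak and an E-box, the nearest E-box lay a median of 27.5 bp from the centre of a shared peak (157 peaks) and 38.5 bp from that of a LiFKO-only peak (126 peaks), in genes whose RefSeq length matched the deposited one within 100 bp.

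**Figure D1:**
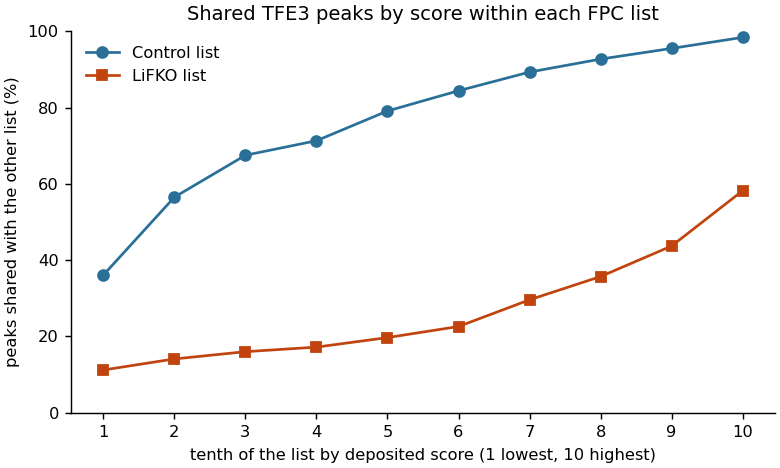
Percent of peaks that overlap a peak of the other FPC list (vertical axis) in each 10% of a list by its own deposited score (horizontal axis), for the Control list (circles) and the LiFKO list (squares). The Control line climbs from 36.1% to 98.4% and the LiFKO line from 11.2% to 58.2%.

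Sharing followed the score within each list, as the plot of shared peaks by score shows. In the Control list, 36.1% of the lowest-scoring 10% and 98.4% of the highest-scoring 10% were shared, and in the LiFKO list 11.2% and 58.2%. Shared peaks had a median percentile of 59.3 in the Control list against 21.8 for Control-only peaks, and 71.2 in the LiFKO list against 42.9 for LiFKO-only peaks. The strongest Control sites were therefore nearly all in the LiFKO list, and 837 of the 972 peaks in the Control top 10% (86.1%) were also in the LiFKO top 10%. From the other side, 1162 of the 2778 peaks in the LiFKO top 10% (41.8%) overlapped no Control peak. Partners sat at nearly the same place, with a median of 22 bp between centres and 63 bp at the 90th percentile. The scores of partners had a Spearman rho of 0.75 over 7437 pairs, a description across sites that share sequence and chromatin between the lists. When the LiFKO list was cut to its 9647 highest-scoring peaks, 43.8% of either list was shared.

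Most of the highest-scoring shared peaks lay at or close to a gene. The top peak of the LiFKO list, with a score of 209.8 (66.0 in the Control list), was at the start of Snx3, a sorting nexin of endosomes (mm9 chr10:42221783-42221949). Next came the start of Scaf1, with a score of 197.6, a peak 158 bp from BC031781, with 190.5, and M6pr, with 187.5, which encodes the cation-dependent mannose 6-phosphate receptor that delivers enzymes to lysosomes. Spg11, whose protein spatacsin acts in lysosome reformation, held the highest peak of the Control list, with a score of 96.2, and scored 169.9 in the LiFKO list (chr2:121944085-121944251). The second highest Control peak, with 92.4, was the Rragc promoter peak shown above (127.4 in the LiFKO list). Scores were set by separate calls, so those of one list are not comparable in size with those of the other.

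LiFKO-only peaks also reached high scores at gene starts. The highest, with a score of 163.5, was 149 bp before the start of Max (chr12:78063301-78063467), the dimer partner of MYC and of other E-box factors, and the nearest Control peak was 18622 bp away. It was present in the chow Control list and in both other LiFKO lists, but not in the Control+1c list. Crtc2, a coactivator of CREB in the fasting response, had a LiFKO-only peak of 126.1 at its edge. Ubtd1 had one of 103.6, found otherwise only in the LiFKO+1c list. Of the 8 highest LiFKO-only peaks, 8 were in the LiFKO+1c list and 7, all but that of Ubtd1, were in both the chow LiFKO and the chow Control lists. The Control+1c list held 1 of them, near Eps15l1.

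Control-only peaks were low, and the highest of them lay beside LiFKO peaks. The top 8 scored 24.1 to 36, and 7 of these had the centre of a LiFKO peak at 202 to 404 bp. At Unk, for example, the Control-only peak (chr11:115891680-115891854, score 29.8) was 220 bp from a LiFKO-only peak of 67.1 (chr11:115891464-115891630), so the 2 lists marked neighbouring positions of the same promoter. The eighth, in Pgpep1, was 3462 bp from the nearest LiFKO peak. Over all 2210 Control-only peaks, 11.4% had a LiFKO peak centre within 1 kb and the median distance was 11.6 kb, against 3.9% and 34.7 kb for LiFKO-only peaks and the shorter Control list. Mnt, a MAX-binding repressor, and Eif4ebp2, a translation inhibitor under mTORC1, were near other top Control-only peaks, and the genes themselves also had shared peaks.

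**Figure D2:**
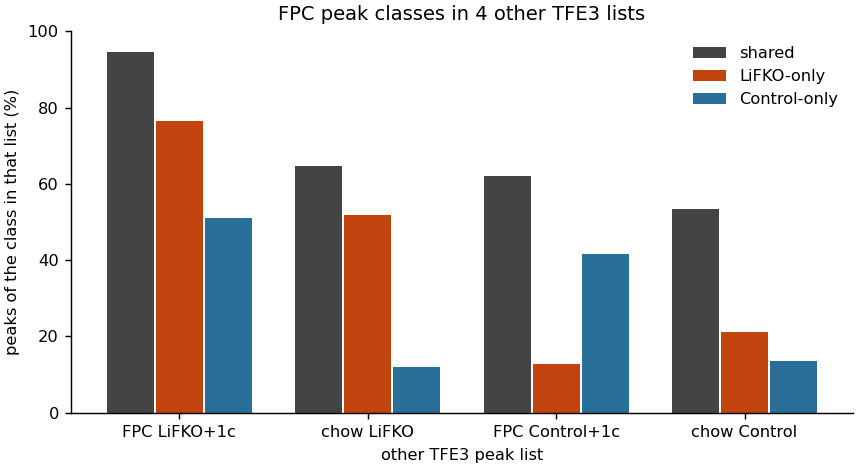
Percent of shared, LiFKO-only and Control-only FPC peaks (bars) that overlap a peak of each of 4 other TFE3 lists (horizontal axis: FPC lists with the nSREBP-1c virus and chow lists). Shared peaks stand highest in every list, and Control-only peaks are above LiFKO-only peaks in the Control+1c list alone.

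In the 4 other TFE3 lists, the classes differed in where they recurred, as the plot of FPC peak classes in other lists shows. The chow mice received a lower dose of the GFP or Cre virus than the FPC mice, as did those of the +1c lists, so diet and dose cannot be told apart between FPC and chow. Of shared peaks, 94.5% were in the LiFKO+1c list, 64.8% in the chow LiFKO list, 62.1% in the Control+1c list and 53.4% in the chow Control list. For LiFKO-only peaks the shares were 76.4%, 51.8%, 12.8% and 21.1%. Control-only peaks were found in 51.0%, 12.1%, 41.7% and 13.5%. Absence from all 4 lists was seen for 30.8% of Control-only and 16.1% of LiFKO-only peaks. Of the LiFKO-only peaks, 25% were in both other LiFKO lists and in no Control list, while 30.1% were in at least 1 of the other 2 Control lists. The FPC lists share the Tfe3KO background library, and the lists differ in length (10827, 35325, 11385 and 26445 peaks for Control+1c, LiFKO+1c, chow Control and chow LiFKO), so these shares are descriptions.

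**Figure D3:**
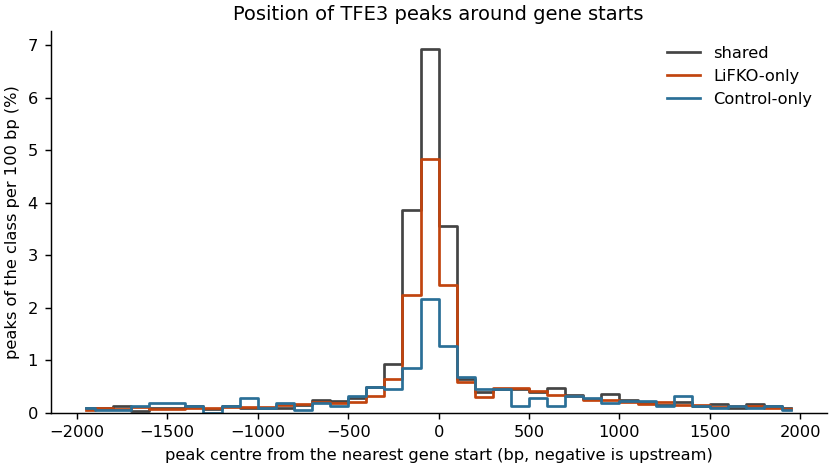
Percent of the peaks of each class (lines) per 100 bp of distance between the peak centre and the nearest start of a measured gene with a known strand (horizontal axis, negative values upstream). All 3 classes peak within 100 bp upstream of the start, the shared class highest and the Control-only class lowest.

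Peaks gathered at gene starts in each class, and over whole classes most in the shared one. Within 1 kb of the start of a measured gene lay 20.6% of shared, 14.9% of LiFKO-only and 9.1% of Control-only peaks, and within 250 bp 15.7%, 10.7% and 5.5%. In the top 10% of each class the shares within 1 kb were 47.7%, 45.5% and 30.3%. At equal rank in the LiFKO list, shared and LiFKO-only peaks had the opposite order among the highest peaks. In the top 10% of that list, 38% of 1615 shared and 52.4% of 1160 LiFKO-only peaks lay within 1 kb of a start, and in the next 10% the shares were 22.7% of 1214 and 33.9% of 1561. Peaks inside a measured gene made up 48.2%, 48.9% and 48.6%. Starts were known for 9914 of the 13815 measured genes (71.8%), those whose strand RefSeq gives.

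**Figure D4:**
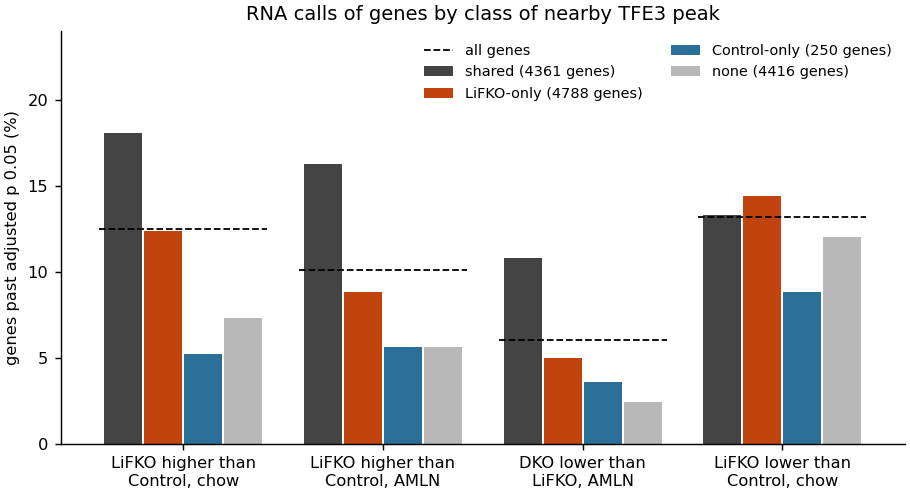
Percent of genes past an adjusted p of 0.05 (vertical axis) by the class of TFE3 peak in the gene or within 5 kb (bars), for 4 RNA comparisons (horizontal axis). Dashed lines give all 13815 genes. Genes with a shared peak stand above the line in the first 3 comparisons, at 18.1%, 16.3% and 10.8%.

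Genes were sorted by the peaks whose centre lay in the gene or within 5 kb: 4361 had at least 1 shared peak, 4788 had LiFKO-only peaks and no shared peak, 250 had only Control-only peaks and 4416 had none. On chow, 791 of the genes with a shared peak (18.1%) were higher in LiFKO than in Control liver, against 12.5% of all genes tested. For genes with LiFKO-only peaks the share was 12.4%, for Control-only 5.2% and for none 7.3%. On AMLN, where 10.1% of all genes were higher in LiFKO, the shares were 16.3%, 8.8%, 5.6% and 5.6%. DKO liver was lower than LiFKO liver for 5.97% of all genes, and for 10.8% of genes with a shared peak, 5.0% with LiFKO-only peaks, 3.6% with Control-only peaks and 2.4% with none. The DKO and AMLN comparisons use the same LiFKO libraries. Genes that were lower in LiFKO on chow made up 13.2% of all genes and 13.3%, 14.4%, 8.8% and 12.0% of the 4 classes, a narrower spread. On AMLN, 9.63% of all genes were lower in LiFKO, with 9.0% and 11.3% in the shared and LiFKO-only classes.

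Genes with a shared peak were thus above the share of all genes for higher RNA in LiFKO on both diets and for lower RNA in DKO, and genes with LiFKO-only peaks but no shared one were at or below it. The classes also differed in gene length, with medians of 29.3, 23.1, 21.1 and 8.9 kb, and in mean RNA level, with medians of 10.45, 9.98, 8.78 and 8.84 on the deposited log2 scale. The part of these measures in the calls was not tested. Higher RNA in LiFKO on both diets was found for 487 genes with a shared peak (11.2% of them) and 279 with LiFKO-only peaks (5.83%), against 927 of all genes (6.71%).

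At gene starts, the 2 classes could be set side by side by the rank of the highest LiFKO peak within 1 kb of the start. A gene was in the shared class if any peak there was shared, so its highest peak need not be the shared one. With the highest peak in the top 10% of the list, 25.3% of 681 genes of the shared class were higher in LiFKO on chow. Of 663 such genes with LiFKO-only peaks and no shared one, 14.6% were higher. Median RNA levels of these groups were 10.65 and 10.54. On AMLN their shares were 23.5% and 12.4%, and DKO was lower in 19.1% and 7.4%. Between the 75th and 90th percentiles the chow shares were 17.2% of 443 and 15.1% of 763, between the 50th and 75th 18.9% of 354 and 12% of 765, and under the 50th 6.7% of 150 and 13.1% of 720. The gap was widest in the top 10%, did not narrow evenly with rank, and had the opposite sign under the 50th percentile. Without regard to class, the chow share went from 12.5% of 295 genes with a start peak under the 25th percentile to 20% of 1344 above the 90th.

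The targeted gene comes first among the members of the folliculin circuit. Flcn had 2 shared peaks, the stronger 800 bp after its start (chr11:59622635-59622801, score 43.1) and another at 87 bp (30.5), beside a LiFKO-only peak of 19.7. Its RNA on chow was 11.33, 11.55 and 11.44 in Control and 10.55, 10.14 and 10.53 in LiFKO libraries, on the log2 scale. The groups did not overlap, and the difference was -1.03 ± 0.17 (SE, n = 3 against 3, adjusted p = 0.000394, limma with Benjamini-Hochberg adjustment, as for every adjusted p below). On AMLN it was -0.57 ± 0.17 (adjusted p = 0.0257), a call that was lost when any of 4 libraries was left out (adjusted p of 0.0592 to 0.102). Flcn RNA was lower in DKO than in LiFKO liver on AMLN (-0.92 ± 0.17, adjusted p = 0.00242), so these groups differed in Flcn RNA as well as in Tfe3. Whole liver also holds cells that the TBG virus does not delete in. Tfe3 itself had a single LiFKO-only peak, 26 bp after its start, with a low score of 11.2, and its RNA did not pass the test on chow (-0.10 ± 0.12, adjusted p = 0.621).

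The Rag GTPases that pass amino acid signals to mTORC1 showed 2 patterns of binding. Rragc, with the shared peak shown above, had RNA of 11.51, 11.76 and 11.52 in chow Control and 12.27, 12.33 and 12.41 in chow LiFKO libraries, a rise of 0.74 ± 0.10 (adjusted p = 0.000124). Rragd had no shared peak: its LiFKO-only peaks, 339 bp after the start (chr4:33070268-33070434) and about 16.2 kb into the gene, scored 10.3 and 9.87, at the 41.6th and 38.7th percentiles. Its RNA was 7.53, 7.64 and 7.76 in chow Control and 12.89, 12.73 and 12.99 in chow LiFKO libraries. That is a difference of 5.23 ± 0.23, given as a description, since Rragd was also among the genes picked by chow p below. On AMLN, Rragd was 7.95, 8.49 and 7.9 in Control, 12.89, 12.69 and 12.96 in LiFKO, and 9.16, 8.14 and 8.12 in DKO libraries. LiFKO was higher than Control there by 4.73 ± 0.23 (adjusted p = 2.34e-08), and the DKO libraries were all below LiFKO (log2 difference -4.37 ± 0.23, adjusted p = 6.94e-08), and 1 of them was above every Control library.

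**Figure D5:**
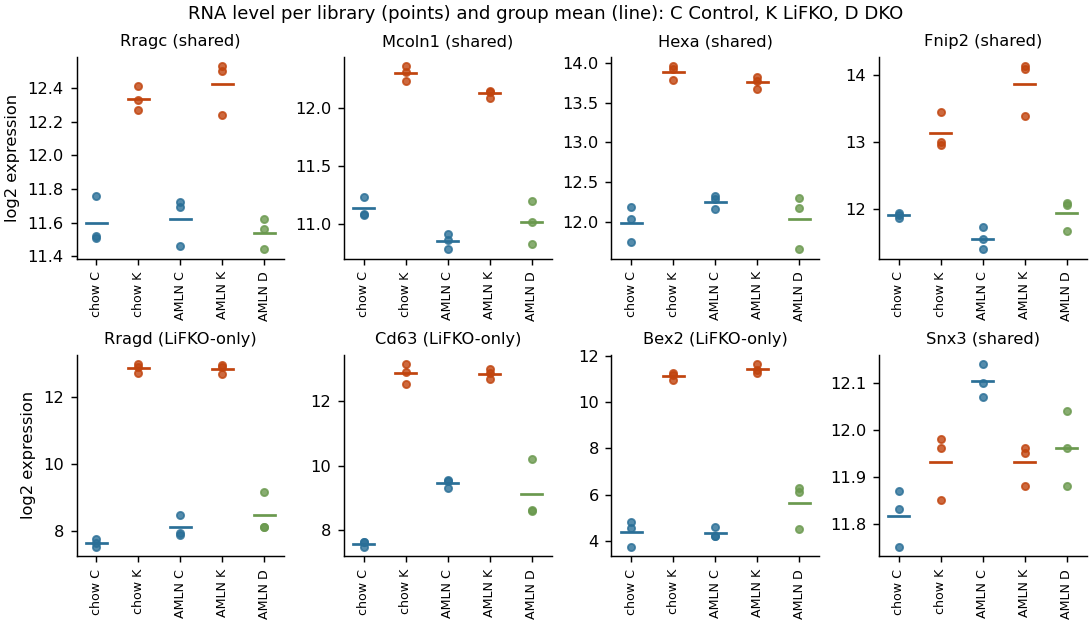
Deposited log2 RNA level (vertical axes, which differ between panels and do not start at 0) in each library (points) with the group mean (line) for 8 genes, with the class of FPC peaks near each gene in the panel title. LiFKO libraries are above Control libraries on both diets for every gene but Snx3, whose start held the highest LiFKO peak. The 8 genes were chosen for display, and Rragd, Cd63 and Bex2 were among those picked by chow p, so the separation of groups is a description.

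The folliculin partners had high shared peaks at their starts. Fnip2 scored 69.3 at 168 bp before its start and Fnip1 57.9 at 83 bp before, and both encode folliculin-interacting proteins. Fnip2 RNA on chow was 11.86, 11.94 and 11.91 in Control and 13.00, 12.95 and 13.45 in LiFKO libraries, with a rise of 1.23 ± 0.18 (adjusted p = 0.000222). Tsc1, which encodes a subunit of the complex that restrains mTORC1, had a shared peak of 64.6 at 151 bp before the start and rose by 0.76 ± 0.11 (adjusted p = 0.000217). In the list of 16 measured folliculin and Rag genes, 7 had a shared peak and 6 had LiFKO-only peaks alone, against 31.6% and 34.7% of all genes. On chow 6 rose and 2 fell, the latter 2 of 16 being near the 13.2% of all genes. On AMLN 7 rose and 3 fell, where 10.1% and 9.63% of all genes did. Tfeb, Mitf and Tfec, the other family members, had shared peaks away from their starts, with percentiles of 77.2, 40.2 and 35.8, and none of the 4 family genes passed the test on either diet in LiFKO against Control.

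Most lysosomal genes had a TFE3 peak, and most rose. Of 40 hydrolases and cofactors, 27 had a shared peak, 10 had LiFKO-only peaks, 1 had only a Control-only peak and 2 had none, so that 92.5% had a LiFKO-list peak, against 66.2% of all genes. On chow, 26 were higher and 1 lower (12.5% and 13.2% of all genes), with a median log2 difference of 0.70 (-0.05 over all genes). On AMLN 24 were higher and none lower (10.1% and 9.63% of all genes), and 25 were lower in DKO than in LiFKO (5.97% of all genes). Hexa, an enzyme of ganglioside breakdown, had a shared peak 51 bp before its start with a score of 62.6 (30.7 in the Control list). Its chow RNA was 12.03, 12.19 and 11.74 in Control and 13.79, 13.93 and 13.96 in LiFKO libraries, a rise of 1.90 ± 0.14 (adjusted p = 5.11e-07). Ctsz, a lysosomal protease, had a shared peak of 70.8 at 101 bp and rose by 1.91 ± 0.12 (adjusted p = 1.07e-07). Naglu rose less, by 0.71 ± 0.10 (adjusted p = 0.000185), with a peak of 82.2. Gaa, acid alpha-glucosidase, had a shared start peak of 54.7 and a difference of -0.06 ± 0.08 (adjusted p = 0.655), so a high shared peak did not always go with a call.

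All 33 measured genes of the lysosomal membrane and V-ATPase list had a LiFKO-list peak, 26 of them a shared one. On chow, 26 were higher and 1 lower (12.5% and 13.2% of all genes), with a median of 0.67. On AMLN 28 were higher and 1 lower (10.1% and 9.63% of all genes). Mcoln1, with its 2 E-boxes under a peak of 75.7, had chow RNA of 11.23, 11.09 and 11.08 in Control and 12.36, 12.23 and 12.31 in LiFKO libraries. It rose by 1.16 ± 0.09 (adjusted p = 6e-07) and was lower in DKO than in LiFKO on AMLN (log2 difference -1.11 ± 0.09, adjusted p = 3.91e-06). Among the promoters printed above, Atp6v0d1 rose by 0.57 ± 0.07, Atp6v1e1, without an E-box, by 0.72 ± 0.07, and the LiFKO-only Atp6v0b and Atp6v0e by 0.90 ± 0.08 and 0.57 ± 0.10 on chow. Genes of the pump thus rose with shared and with LiFKO-only start peaks. Atp6v0b and Atp6v0e are named for the rank of their promoter peaks and fall outside the rule for named genes.

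In the autophagy list, 24 of 25 genes had a LiFKO-list peak, 14 of them shared, but RNA was mixed. On chow 8 were higher and 6 lower (median -0.14), where 12.5% and 13.2% of all genes were. On AMLN 7 were higher and 1 lower (median 0.02), where 10.1% and 9.63% of all genes were. Wipi1, a phosphoinositide-binding protein of the forming autophagosome, had a LiFKO-only peak of 74.7 at 72 bp after its start and rose by 0.78 ± 0.12 (adjusted p = 0.000315). Ulk1 had a LiFKO-only peak of 50.4 at 96 bp before its start, a shared one 2 kb downstream, and rose by 0.49 ± 0.10 (adjusted p = 0.0022). Uvrag, Optn and Gabarapl2, of the same list, had shared peaks of 96.5, 89.7 and 52.1. On chow Uvrag stood at 0.04 ± 0.11 (adjusted p = 0.862) and Gabarapl2 at 0.05 ± 0.08 (adjusted p = 0.689). Optn rose by 0.30 ± 0.09 (adjusted p = 0.0238), a call lost without chow Control library 1 or 2 or chow LiFKO library 1 or 3 (adjusted p = 0.053 to 0.102).

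Several mitochondrial and fat oxidation genes had LiFKO-only peaks. Of 9 mitochondrial regulators, 3 had shared and 5 LiFKO-only peaks, so that 88.9% had a LiFKO-list peak, against 66.2% of all genes. On chow 3 were higher and 1 lower (12.5% and 13.2% of all genes), the latter near the share of all genes. On AMLN 4 were higher and none lower (10.1% and 9.63% of all genes). Esrra, an orphan nuclear receptor that works with PGC-1alpha, had a LiFKO-only peak of 45.9 at 209 bp before its start, found otherwise only in the LiFKO+1c list, and rose by 0.68 ± 0.14 (adjusted p = 0.00274). Ppargc1a, which encodes PGC-1alpha, had 1 shared and 7 LiFKO-only peaks, none of them within 1 kb of the start, and rose by 2.23 ± 0.23 (adjusted p = 8.45e-06). In the fat oxidation list, 7 genes had shared and 6 LiFKO-only peaks of 15. On chow 9 rose and none fell (12.5% and 13.2% of all genes), with a median of 0.62. On AMLN 4 rose and 2 fell (10.1% and 9.63% of all genes), with a median of 0.06 (-0.02 over all genes). Acadl, a long-chain acyl-CoA dehydrogenase, had a shared peak 439 bp after the start (47.2) and rose by 0.68 ± 0.12 (adjusted p = 0.000707). Pdk4 had a LiFKO-only peak of 20.2 at 158 bp before its start. Cpt1a and Pdk4, whose highest peaks were shared and away from the start, rose on chow by 0.78 ± 0.15 (adjusted p = 0.00191) and 2.76 ± 0.62 (adjusted p = 0.00461). On AMLN they did not pass, at 0.31 ± 0.15 (adjusted p = 0.187, and 0.0382 with a replicate block within each diet) and 0.06 ± 0.62 (adjusted p = 0.961).

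Genes of fat and sterol synthesis were mostly near peaks of both lists, and their RNA moved in both directions. Of 19 lipogenic genes, 12 had shared and 6 LiFKO-only peaks, against 31.6% and 34.7% of all genes. On chow 3 were lower and 5 higher, where 13.2% and 12.5% of all genes were. On AMLN 11 were lower and 3 higher (median -1.05), where 9.63% and 10.1% of all genes were. The 3 lower on chow and the 3 higher on AMLN were near those shares. Fasn, fatty acid synthase, had a shared peak at 37 bp before its start with a moderate score of 18.9 (76.1st percentile, 10.6 in the Control list), found otherwise only in the LiFKO+1c list. Its RNA on AMLN was 16.15, 15.55 and 15.81 in Control, 13.2, 13.35 and 13.13 in LiFKO and 14.77, 14.45 and 14.74 in DKO libraries. The 3 groups did not overlap, and LiFKO was lower than Control (log2 difference -2.61 ± 0.24, adjusted p = 6.27e-06). On chow the Fasn difference was -0.95 ± 0.24 (adjusted p = 0.0102), which became 0.0531 without Control library 1 and 0.0526 without LiFKO library 1. Srebf1, the main activator of lipogenic genes, had shared peaks of 28.7 in the gene and 18.7 at 336 bp before the start. It fell by 1.35 ± 0.18 on AMLN (adjusted p = 0.000158) and by 0.63 ± 0.18 on chow (adjusted p = 0.0211). The chow difference of Srebf1 was -0.37 without Control library 1 (adjusted p = 0.092), and it missed the threshold without either of LiFKO libraries 1 and 2 (adjusted p = 0.0648 and 0.0792) and with only the 2 groups in the fit (adjusted p = 0.0569).

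Acacb and Pklr of the same list rose. Acacb, the acetyl-CoA carboxylase whose product restrains fat oxidation, had a shared peak of 50.8 about 33.1 kb into the gene and a LiFKO-only peak of 20.2 at 438 bp before its start. Its chow RNA was 11.17, 10.38 and 11 in Control and 14.93, 14.86 and 14.78 in LiFKO libraries, with a rise of 4.01 ± 0.17 (adjusted p = 4.39e-09). Pklr, liver pyruvate kinase, had a LiFKO-only peak of 27.7 at 306 bp after its start and rose by 1.66 ± 0.31 (adjusted p = 0.00119). In the cholesterol list, 11 of 19 genes had shared and 6 LiFKO-only peaks, and none was higher on either diet. On chow 9 were lower and on AMLN 13, where 13.2% and 9.63% of all genes were. Mvd, of the mevalonate pathway, had a shared peak of 58.4 at 97 bp before the start and a chow difference of -1.10 ± 0.38 (adjusted p = 0.0444), which became 0.0636 with the replicate block. That difference was -0.62 without chow LiFKO library 1 (adjusted p = 0.197). The call was also lost without 3 other chow libraries, Control 1 and 3 and LiFKO 3 (adjusted p = 0.0752 to 0.151). Srebf2, with the LiFKO-only promoter peak of 73.2 shown above, had a difference of -0.26 ± 0.12 (adjusted p = 0.142). Plin3, a lipid droplet coat protein, had shared and LiFKO-only peaks of 27.5 and 31.1 and rose by 1.47 ± 0.13 (adjusted p = 2.35e-06), and Pnpla2, an adipose triglyceride lipase, rose by 0.71 ± 0.13 (adjusted p = 0.00125).

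High peaks and RNA calls were on the same genes in some cases and not in others. Of the genes nearest to the 8 highest shared peaks by LiFKO score, 2 were higher and none lower in LiFKO on chow, and by Control score 6 and none. Of those nearest to the 8 highest LiFKO-only peaks, 2 were higher and none lower, and for Control-only peaks 3 and none, against 12.5% higher over all genes. Snx3, with the highest LiFKO peak, had chow RNA of 11.75, 11.87 and 11.83 in Control and 11.96, 11.85 and 11.98 in LiFKO libraries, groups that overlapped (difference 0.11 ± 0.07, adjusted p = 0.261). Scaf1, M6pr and Dyrk1a, a kinase gene with a shared peak of 166, had chow differences of -0.08 ± 0.08, 0.00 ± 0.06 and -0.18 ± 0.09, none past the threshold (adjusted p = 0.535, 0.983 and 0.146). Max rose by 0.49 ± 0.11 (adjusted p = 0.00445), while Crtc2 (-0.23 ± 0.10, adjusted p = 0.106) and Unk (-0.24 ± 0.14, adjusted p = 0.234) did not pass. Nampt, the NAD salvage enzyme, with a shared peak of 159, rose by 0.75 ± 0.19 (adjusted p = 0.00915). Hmox1, heme oxygenase, rose by 1.80 ± 0.21 (adjusted p = 3.5e-05), with shared peaks of 49.1 and 48.9 near the gene and the Control list's peak of 77.7 about 9620 bp outside it.

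The genes with LiFKO-only peaks and the smallest chow p were picked by that p, so their RNA values are given as a description. Bex2 had chow RNA of 4.55, 3.73 and 4.82 in Control and 10.94, 11.17 and 11.24 in LiFKO libraries, with a single peak 18 bp after its start at the 7.3rd percentile (score 5.36), found in none of the other 4 lists. Anxa8 (log2 difference 6.96 ± 0.37) had 1 peak, at the 22.2nd percentile, and Slc6a8 (3.26 ± 0.20) 1 at the 7.3rd. Mmp27, a matrix metalloproteinase, had a peak 17 bp before its start at the 73.4th percentile and a difference of 8.34 ± 0.19. Gpx3, a secreted glutathione peroxidase named apart from that choice, stood at 6.03 ± 0.47 with a peak at the 56.5th percentile, 3711 bp into the gene. Cib3, with a peak 113 bp before its start at the 71.2nd percentile, stood at 6.68 ± 0.43. Cd63, a tetraspanin of late endosomes, was the one of these with a peak in the top 10%: 58.6, at 867 bp after its start (chr10:128346759-128346925), in no Control list and in both other LiFKO lists. Its chow RNA was 7.49, 7.64 and 7.64 in Control and 12.89, 13.13 and 12.52 in LiFKO libraries.

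Genes with LiFKO-only peaks and lower RNA included liver enzymes. Pon1, paraoxonase, had a difference of -1.90 ± 0.16 with a highest peak at the 44.1st percentile, and Cbs, cystathionine beta-synthase, -1.38 ± 0.13 with one at the 71.2nd. Clcn2, a chloride channel, stood at -1.11 ± 0.10 with a peak of 32.4 at 36 bp after its start, and Anpep, aminopeptidase N, at -1.09 ± 0.10. The largest of these falls was 1500017E21Rik, at -4.54 ± 0.30. Among genes with Control-only peaks, picked by the same rule, Gnai1 had chow RNA of 6.96, 6.74 and 8.37 in Control and 10.71, 10.37 and 10.67 in LiFKO libraries, with a Control peak of 4.21 at the 1.5th percentile. Kif3a, a kinesin gene, stood at 0.98 ± 0.18 with a Control-only peak of 10.4 about 4137 bp before its start.

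Markers of hepatocytes, the cells in which Cre acts, were mostly near a peak. Of 12 hepatocyte markers, 11 had a LiFKO-list peak, against 3 of 14 macrophage, 2 of 9 stellate, 7 of 10 endothelial, 2 of 5 cholangiocyte and 1 of 3 lymphocyte and neutrophil markers. The share over all genes was 66.2%, near that of the endothelial list. In the RNA, the summed hepatocyte marker level (log2 of the sum) ran from 22.36 to 22.43 in chow Control and from 21.64 to 22.05 in chow LiFKO libraries, which did not overlap, and 4 of the 12 were lower and 1 higher (13.2% and 12.5% of all genes). On AMLN it ran from 22.32 to 22.37 in Control, 21.85 to 21.92 in LiFKO and 22.34 to 22.37 in DKO libraries, so LiFKO lay below both. Marker by marker, 1 of the 12 was lower in LiFKO on AMLN and none higher (9.63% and 10.1% of all genes), with a median difference of -0.10. None passed in DKO against LiFKO. The sums were taken on a linear scale, so the most abundant markers weigh most in them, here and below. Summed endothelial markers on AMLN were higher in LiFKO (14.66 to 14.79) than in Control (14.26 to 14.42) or DKO (14.37 to 14.61), and cholangiocyte markers lower in LiFKO (10.4 to 11.9) than in Control (12.07 to 12.68), overlapping with DKO (11.05 to 12.11). Singly, 1 of 10 endothelial markers was higher in LiFKO on AMLN, near the 10.1% of all genes. Of 5 cholangiocyte markers, 1 was lower there (9.63% of all genes). On chow, the sum of the 3 lymphocyte and neutrophil markers was also lower in LiFKO (6.81 to 7.26) than in Control (7.45 to 7.85), and none of the 3 passed the test. Summed macrophage markers on chow ran from 14.24 to 15.22 in Control and from 14.39 to 14.77 in LiFKO libraries, and no marker was at 0. Of the 14, 2 were higher, Cd68 and Gpnmb, near the 12.5% of all genes, and none was lower. The median difference of the 14 was -0.20. Gpnmb had peaks of 10.5 (LiFKO-only) and 9.15 (Control-only) in or near the gene. Its RNA was 4.55, 3.13 and 4.82 in chow Control, 7.92, 9.6 and 8.2 in chow LiFKO, 9.71, 9.75 and 8.14 in AMLN Control and 8.03, 7.81 and 8.08 in AMLN LiFKO libraries. The part of cell makeup in the RNA calls was not tested. Between the diets, the LiFKO effect differed at an adjusted p under 0.05 for 39 genes upward (0.282% of all) and 105 downward (0.76%), and DKO was higher than LiFKO for 5.05% of all genes.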

How the data were processed

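For the deposited peak lists, the submitters' processing notes name HOMER 4.4, Bowtie2 2.2.6 and Trimmomatic 0.36, besides SAMtools 0.1.19, and the build mm9. Per the file headers, each list merges peaks called on 3 pooled libraries over 2 backgrounds, and its score is the authors' HOMER value per peak, used only to describe or rank peaks within a list. Log tag counts of single LiFKO libraries come from the authors' deposited table of another comparison, and their transformation is not given in the sources used here. RNA levels are deposited log2 values, which the authors made with STAR 2.6.0c, featureCounts and limma per the submitters' processing notes. Their library depths are not given in the sources used here.

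Peaks were compared by an overlap of at least 1 bp, with no test, because the lists are pooled. A gene was assigned the peaks whose centre lay in it or within 5 kb, by the table's mm9 coordinates. Strand, promoters and gene names came from RefSeq (GRCm38.p6). RNA was tested with limma 3.58.1 (R 4.3.3) over 15 libraries and 13815 genes, with an empirical Bayes trend and Benjamini-Hochberg adjustment at 0.05. Labels do not say that each library is a separate mouse, so p-values measure the spread between libraries. Simulated data for 13815 genes took their means from chow Control and their spreads from all RNA groups. There, 69 of 100 genes shifted by 1 log2 unit and 96 of 100 shifted by 2 were called, with 9 false calls. Libraries were drawn independently and fewer genes were shifted than were called on chow, so these counts do not measure recovery in the chow comparison.

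Same-numbered chow libraries deviated together (r = 0.113, 0.17 and 0.237 across genes), which meets the rule for pairing used here. The reported fits have no replicate block, and the blocked value is given where it changes a call. Named genes are Flcn, Tfe3, up to 6 genes per list with the highest-ranked LiFKO peak, the nearest genes of the 8 highest peaks per class, the 8 genes with LiFKO-only and 4 with Control-only peaks and the smallest chow p in each direction, and a set of folliculin-circuit and lipid genes. Members and lists were chosen with earlier results of these data known.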

Additional observations from a re-analysis of the deposited data

Results flagged for a closer look

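The LiFKO effect on RNA differed between the diets, by limma's interaction term, for 7 of 117 named genes, 6 with a lower effect on AMLN than on chow and 1 with a higher one, against 0.76% and 0.282% of all genes. Some named genes were picked by chow p, which enters the term, and others with earlier results known. The count is therefore a description, and no excess over all genes can be read from it. For Acacb the difference of effects (AMLN minus chow) was -2.58 ± 0.25 (adjusted p = 0.000196), with a rise on both diets. For Fasn it was -1.67 ± 0.34 (adjusted p = 0.0346), with a fall on both. Gpnmb had a difference of -5.64 ± 0.97 (adjusted p = 0.0203), from 4.41 on chow to -1.23 on AMLN. Cd36, a fatty acid transporter, differed by -2.12 ± 0.38 (adjusted p = 0.0203), from 2.89 on chow to 0.76 on AMLN. Tceal8 differed by -3 ± 0.23 (adjusted p = 3.12e-05), from 3.08 to 0.08. Tdp1, with a Control-only peak, differed by -1.2 ± 0.23 (adjusted p = 0.0284), from 1.03 to -0.17. Tceal8 and Tdp1 were picked by their chow p, which enters this difference, so theirs are descriptions. Gabpa, with a LiFKO-only peak of 36.5 at 19 bp from its start, went the other way by 0.44 ± 0.10 (adjusted p = 0.0483), from -0.22 (adjusted p = 0.0292) to 0.22 (adjusted p = 0.0376). Its call on chow was lost without any of 4 libraries (adjusted p = 0.0734 to 0.0888), and that on AMLN without any of 5 (adjusted p = 0.063 to 0.121). The peaks are from FPC, so none of these differences has binding measured on the same diet here.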

How the results depend on the processing

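Of the Control list, 73.5% was shared when 50% of both peaks had to overlap, 75.1% with centres within 100 bp, 82% among peaks at or above each list's median score and 43.8% with the LiFKO list cut to the Control length. Of the LiFKO list these were 25.6%, 26.1%, 28.3% and 43.8%. The median percentile of Control-only peaks was 24.5 with the stricter overlap. With centres within 100 bp, shared peaks were found in 61% (Control+1c), 92.9% (LiFKO+1c), 48.7% (chow Control) and 54.2% (chow LiFKO), LiFKO-only peaks in 12.2%, 74.6%, 18.4% and 42.4%, and Control-only peaks in 11.4% of the chow Control and 8.6% of the chow LiFKO list. CACGTG was in 28% of shared promoters with a RefSeq length within 100 bp, a setting added after seeing the data. A motif search in the central 100 bp of peaks was not run, since it needs the mm9 genome.

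Genes higher in LiFKO on chow, with a shared peak, made up 16.2% at 20 kb, 20.8% with peaks above the median score, 20.8% with the cut list and 20% within 1 kb of the start (added after seeing the data). With LiFKO-only peaks they made up 11%, 13.4%, 14% and 13.7%. On AMLN these were 14.1%, 19%, 19.1% and 17.6% against 7.8%, 10.2%, 10.3% and 11%, and for lower RNA in DKO 9%, 12.9%, 13.2% and 12.9% against 4.4%, 6%, 6.3% and 6.4%. The shared class was the higher in 15 of 15 settings of each comparison.

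Leaving out 1 library gave 15.4 to 16.3% and 9.8 to 10.6% on chow, 12.7 to 14.1% and 6.7 to 8% on AMLN, and 7.8 to 9.1% and 3.4 to 4.2% for DKO, for shared and LiFKO-only peaks. Called genes numbered 1385 to 1478 higher and 1308 to 1484 lower on chow, 1045 to 1230 and 940 to 1168 on AMLN, and 379 to 577 and 590 to 703 for DKO. The count higher in DKO fell from 698 to 379 without DKO replicate 2, 465 without DKO replicate 3 and 409 without AMLN LiFKO replicate 3. The sign turned in some of these fits for 5 genes, none past the threshold: Pdk4 on AMLN ran from -0.81 to 0.57, Uvrag on chow from -0.07 to 0.13, Tceal8 on AMLN ran from -0.13 to 0.2, Gaa on chow from -0.11 to 0.01 and M6pr on chow from -0.03 to 0.03. With the replicate block, 1670 genes were higher and 1739 lower on chow, and with the block within each diet (added after seeing the data) the shared class stood at 19.5%. The replicate block ended the calls of Mvd on chow (adjusted p = 0.0636) and Gabpa on AMLN (adjusted p = 0.0589) and changed no other call among the printed genes. The block within each diet also called Cd36 and Cpt1a on AMLN (adjusted p = 0.0203 and 0.0382). Of 1498 alternative values for single genes, 1445 kept their direction and side of the threshold. Causes were not tested.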

Other observations

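Genes of the circadian clock, whose core activators CLOCK and BMAL1 also bind E-boxes, had FPC peaks throughout: of 12 measured, 8 had a shared peak and 4 LiFKO-only peaks, where 66.2% of all genes had a LiFKO-list peak. On chow 1 of them was higher in LiFKO and 4 were lower (12.5% and 13.2% of all genes, median log2 difference -0.05, as over all genes). On AMLN 2 were higher and none lower (10.1% and 9.63% of all genes). The RNA groups and the FPC livers differed in fasting and feeding, and the hour of sampling was not compared. All 13 lipid droplet and lipolysis genes also had a LiFKO-list peak, 5 of them shared. On chow 5 were higher and none lower (median 0.7), where 12.5% and 13.2% of all genes were. On AMLN 3 were higher and 2 lower (median -0.04), where 10.1% and 9.63% of all genes were. Of the 7 other E-box factors listed, 4 had shared and 2 LiFKO-only peaks, against 31.6% and 34.7% of all genes. On chow 1 of them was higher, near the 12.5% of all genes, and 3 were lower, against 13.2% of all genes.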
